A study of Saccharomyces cerevisiae with 12 samples.

Results

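Thioredoxins and glutaredoxins are small proteins that reduce disulfide bonds in other proteins. In Saccharomyces cerevisiae a thioredoxin is recharged by thioredoxin reductase with electrons from NADPH, and a glutaredoxin is recharged by glutathione, which glutathione reductase returns to its reduced form with NADPH. Both systems serve peroxide defence and DNA precursor synthesis, thioredoxins also serve sulfate reduction, and the monothiol glutaredoxins also carry iron-sulfur clusters. The genes described here are 10 members of these families, picked by family name, with earlier results of these data known: the cytosolic thioredoxins TRX1 (YLR043C) and TRX2 (YGR209C), the mitochondrial thioredoxin TRX3 (YCR083W), the cytosolic and mitochondrial thioredoxin reductases TRR1 (YDR353W) and TRR2 (YHR106W), the dithiol glutaredoxins GRX1 (YCL035C) and GRX2 (YDR513W), the nuclear and cytosolic monothiol glutaredoxins GRX3 (YDR098C) and GRX4 (YER174C), and the mitochondrial monothiol glutaredoxin GRX5 (YPL059W). All 10 were found among the 7126 entries with a gene identifier in each of the deposited tables, and none was at 0 in any library.

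The study sequenced RNA of BY4742, a haploid yeast of mating type alpha, grown in synthetic dextrose complete medium. There were 4 groups of 3 libraries: early cultures (before 72 h after inoculation) left untreated or given NaHS, a salt that releases hydrogen sulfide, and late cultures (after 72 h) left untreated or given NaHS. The labels state neither the NaHS dose nor whether replicate libraries were grown as separate cultures, so each p describes the spread between these libraries, which may be technical. All groups share the strain's gene deletions: every library listed LEU2, LYS2 and URA3 at 0, while HIS3, which the strain carries as a partial deletion, gave 301 to 345 TPM early and 115 to 522 FPKM late. The alpha-factor gene MF(ALPHA)1 was present in every library (54.8 to 110 TPM early, 24.8 to 121 FPKM late). Of the mating type a genes, MFA1 and MFA2 were at 0 throughout, and STE2 and BAR1 gave 4.19 to 15.4 and 1.34 to 1.95 TPM early and 0 late.

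Early values are TPM and late values are FPKM, both scaled by gene length and by the size of the library. Both are relative to the other transcripts, so a lower value cannot tell fewer cells with a transcript from less transcript per cell. Read depth is unknown, and the tables were normalized separately, so each NaHS effect was measured within its own stage. A gene was called where limma's moderated test on log2(value + 1), NaHS minus control and 2-sided, gave a Benjamini-Hochberg adjusted p below 0.05 over all genes tested. Of the libraries, early NaHS 3 stood apart: its genes differed from those of NaHS 1 and 2 by a median of 0.40 and 0.42 on the log2 scale, against 0.11 between NaHS 1 and 2. The late controls differed among themselves by a median of 0.27 to 0.49.

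The active sites show how the members differ in chemistry and how closely the paralogs match. The coding bases around each site are given 5′ to 3′ on the coding strand of the R64 reference, with the cysteine codons of the site in capitals. Thioredoxins, thioredoxin reductases, GRX1 and GRX2 carry a pair of cysteines, and GRX3, GRX4 and GRX5 carry only the first.
TRX1 (chrXII:231906-231935, minus strand): gccacttggTGCggtccaTGTaaaatgatt
TRX2 (chrVII:913117-913146, minus strand): gccacatggTGTgggccaTGTaaaatgatt
TRX3 (chrIII:259731-259760, plus strand): gctacttggTGTggccccTGTaagatgatg
TRR1 (chrIV:1183713-1183742, plus strand): atttctgccTGTgccgtgTGTgatggtgcc
TRR2 (chrVIII:326081-326110, plus strand): atatctgccTGTgctgtaTGTgatggtgca
GRX1 (chrIII:61075-61104, minus strand): aaaacgtacTGTccatacTGCcatgcagcc
GRX2 (chrIV:1471188-1471217, plus strand): aagacatacTGCccttacTGTaaagctact
GRX3 (chrIV:644385-644414, minus strand): gaacctaaaTGCgggttttcgagacaactt
GRX4 (chrV:538638-538667, minus strand): gaacctaaaTGCggattttctagacagtta
GRX5 (chrXVI:444747-444776, plus strand): tttcccaagTGTggattttcaagagcaacc

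The labels do not say how a read matching both members of a paralog pair was assigned. Over their aligned coding bases, TRX1 and TRX2 were 73.7% identical, TRR1 and TRR2 75.8%, GRX1 and GRX2 65.8%, and GRX3 and GRX4 69.5%. The longest run of bases shared exactly was 17 for the thioredoxins, 20 for the reductases, 9 for the dithiol and 21 for the monothiol glutaredoxins. Of the 10 genes, GRX2 alone overlapped another gene in the RefSeq annotation, sharing 47 bases with EMI1 on the opposite strand.

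In early cultures with NaHS, TRX1, TRR2, GRX2 and GRX4 fell and GRX1 rose. The other 5 members were not called. Against these counts of 4 lower and 1 higher among 10, 28.5% of the 6124 genes tested were called lower and 10.1% higher. In 9 members the 3 NaHS and the 3 control values did not overlap, as was also so for 58.2% of all genes tested. The median over all genes was -0.24 (log2) in early cultures and the median over members -0.33. Scaling libraries by median ratios moved the median over all genes to -0.010, and upper-quartile scaling to 0.081, so early changes are also given relative to the median gene (log2 change less the median). As deposited, 616 genes were called higher and 1743 lower; median-ratio scaling gave 1067 and 1122, and upper-quartile scaling 1207 and 939. Under both scalings 3 members were called higher (GRX1, TRX2 and GRX3) and 3 lower (TRX1, TRR2 and GRX2).

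In late cultures with NaHS, TRX1, TRR2 and GRX4 fell and TRR1 rose, and 6 members were not called. Of the 5344 genes tested late, 9.99% were called lower and 5.28% higher. The groups did not overlap in 6 members, and in 38.6% of all genes tested. The median over members was -0.81 (log2), and over all genes 0.053. The 282 higher and 534 lower calls became 414 and 495 with upper-quartile scaling, with the members' counts as before.

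**Figure D1:**
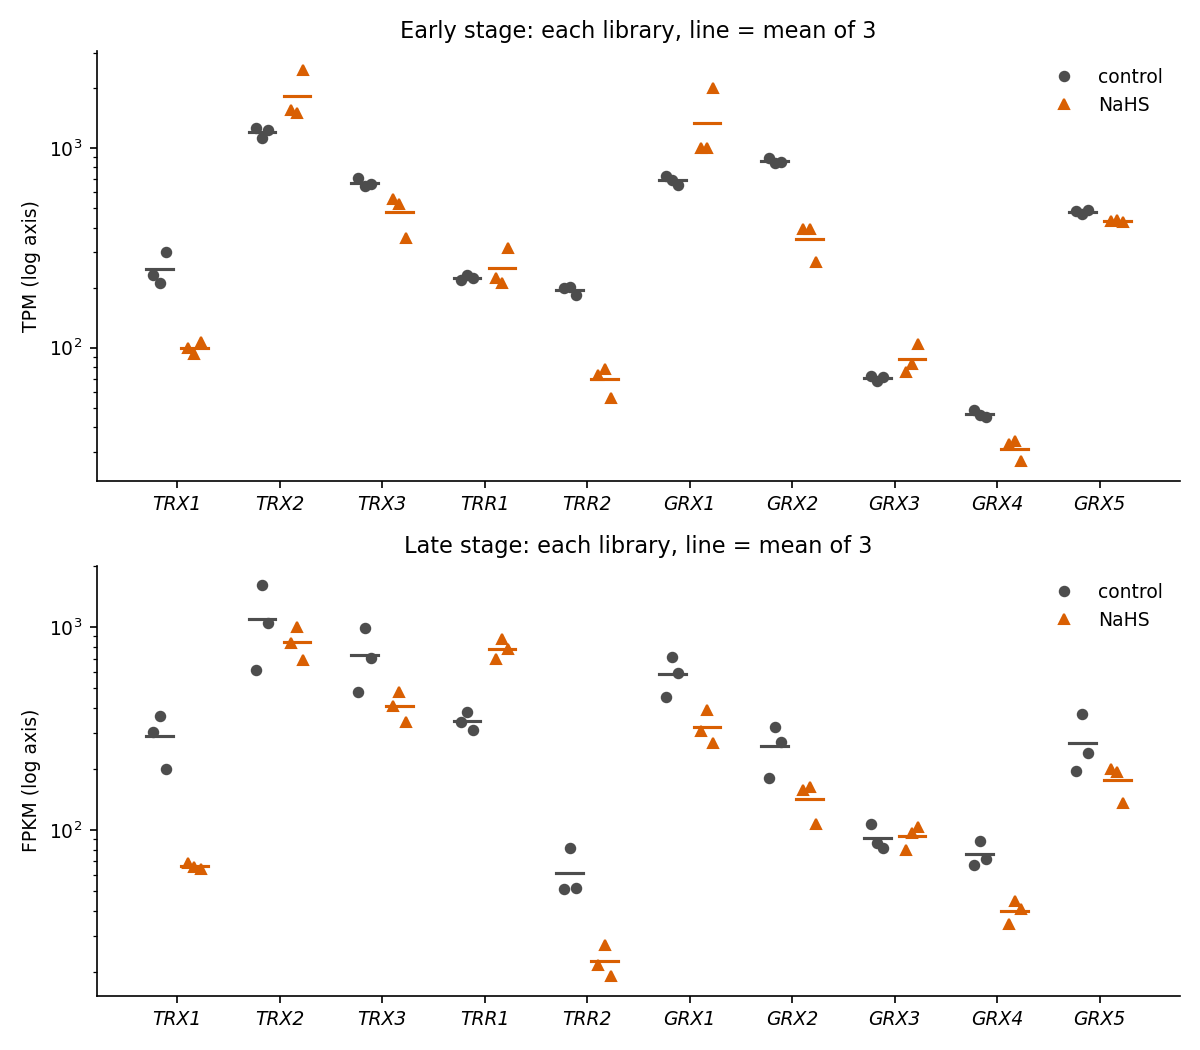
Level of each gene in each library, early in TPM (top) and late in FPKM (bottom), on log axes; circles are controls, triangles are NaHS libraries and lines are means of 3. In both stages the NaHS values of TRX1, TRR2, GRX2 and GRX4 lie below all 3 controls, and late TRR1 lies above them. Such groups did not overlap in 58.2% of all genes tested early and 38.6% late.

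TRX1 (chrXII:231702-232013), the less abundant of the cytosolic thioredoxin transcripts, fell in both stages. In early controls it stood at 233, 211 and 302 TPM and with NaHS at 99.6, 93.1 and 107 TPM. The early difference was -1.29 on the log2 scale (SE 0.156, limma adjusted p = 0.00183), and -1.05 relative to the median gene. In late controls it stood at 305, 365 and 201 FPKM, against 68.9, 65.6 and 63.9 FPKM with NaHS. The 3 late NaHS libraries lay close together and far below the lowest control, or -2.07 on the log2 scale (SE 0.240, limma adjusted p = 0.00262). TRX1 was called lower in both stages under every alternative tried.

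TRX2 (chrVII:912913-913227), which encodes the more abundant cytosolic thioredoxin transcript, did not share that fall. Its early controls were at 1267, 1125 and 1228 TPM and its NaHS libraries at 1552, 1494 and 2453 TPM. All 3 NaHS values were above all controls, with NaHS 3 far above the rest. The log2 change of 0.57 did not pass (limma adjusted p = 0.0696), and relative to the median gene it was 0.81. It was called higher with median-ratio scaling (log2 change of 0.82, limma adjusted p = 0.0291), with upper-quartile scaling (0.93, limma adjusted p = 0.0351) and without NaHS 3 (0.34, limma adjusted p = 0.00961). Late values overlapped, at 617, 1610.3 and 1048 FPKM in controls and 832, 1004 and 691 FPKM with NaHS (log2 change of -0.28, limma adjusted p = 0.617), and without late control 2 the change was 0.049.

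TRX3 (chrIII:259578-259961), the mitochondrial thioredoxin, was not called in either stage. It stood at 705, 647 and 660.2 TPM in early controls and 557, 526 and 354 TPM with NaHS, all lower, with NaHS 3 the lowest. The log2 change was -0.51 (limma adjusted p = 0.0702), or -0.27 relative to the median gene. It was -0.26 with median-ratio scaling (limma adjusted p = 0.282) and -0.16 with upper-quartile scaling (0.446), and without NaHS 3 it was called at -0.31 (limma adjusted p = 0.00971). Late controls were at 476, 991 and 707 FPKM and NaHS libraries at 409, 479 and 341 FPKM. Control 1 lay within the NaHS range; the log2 change was -0.77 (limma adjusted p = 0.124), and without control 1 it was called at -1.04 (limma adjusted p = 0.0382).

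TRR1 (chrIV:1183299-1184258), the cytosolic reductase that recharges TRX1 and TRX2, rose late. Late controls were at 340.4, 382 and 313 FPKM and NaHS libraries at 693, 875 and 782 FPKM, so each NaHS value was well above every control. The late difference was 1.18 on the log2 scale (SE 0.169, limma adjusted p = 0.00603), and it was called under every alternative tried. In early cultures TRR1 stood at 219.6, 230.5 and 223 TPM in controls and 224, 211 and 314 TPM with NaHS. These overlapped, with a log2 change of 0.13 (limma adjusted p = 0.553), 0.37 relative to the median gene, that turned to -0.044 without NaHS 3.

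TRR2 (chrVIII:325598-326626), the mitochondrial reductase, fell in both stages. It went from 199, 200.4 and 185 TPM in controls to 73.2, 78.7 and 56.2 TPM with NaHS, or -1.49 on the log2 scale (SE 0.147, limma adjusted p = 0.000958) and -1.25 relative to the median gene. Late it fell from 51.0, 81.0 and 51.9 FPKM to 21.7, 27.1 and 19.0 FPKM, or -1.38 on the log2 scale (SE 0.243, limma adjusted p = 0.0130). The groups were apart in both stages. The late call was lost without NaHS 1 (limma adjusted p = 0.0528) or NaHS 3 (0.0515).

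GRX1 (chrIII:60841-61173) and GRX2 (chrIV:1471017-1471448), the dithiol glutaredoxins, moved apart in early cultures. GRX1 rose from 724, 691 and 654 TPM to 1005, 1006 and 2000.1 TPM, or 0.88 on the log2 scale (SE 0.277, limma adjusted p = 0.0477), or 1.12 relative to the median gene. All NaHS libraries were above the controls, and NaHS 3 was far above NaHS 1 and 2; without it the change was 0.55 (limma adjusted p = 0.00112). The call was lost without any 1 control (limma adjusted p of 0.109 to 0.131), with the replicate block (0.0685) and with no filter on low values (0.0893). GRX2 fell from 891, 842 and 850.1 TPM to 391, 391 and 270.1 TPM, or -1.31 on the log2 scale (SE 0.165, limma adjusted p = 0.00205) and -1.07 relative to the median gene, and was called under every alternative. Its overlapping neighbour EMI1, needed for early meiotic gene induction, was also called lower, early (-0.91, limma adjusted p = 0.00142) and late (-1.16, limma adjusted p = 0.0403), and the part of the shared bases in the GRX2 values was not tested.

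In late cultures both dithiol glutaredoxins were lower with NaHS, and neither passed. GRX1 was at 451, 714 and 596 FPKM in controls and 306, 392 and 267 FPKM with NaHS, a log2 change of -0.86 (limma adjusted p = 0.0557). GRX2 was at 181, 322 and 273 FPKM in controls and 157, 163 and 107 FPKM with NaHS, a log2 change of -0.84 (limma adjusted p = 0.0867). In both genes the groups did not overlap. GRX1 was called lower without control 1 (-1.04, limma adjusted p = 0.0322), with median-ratio scaling (limma adjusted p = 0.0488) and among genes with a mean of at least 10 (0.0459), and GRX2 without control 1 (-1.08, limma adjusted p = 0.0347).

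GRX4 (chrV:538434-539168), which with GRX3 passes iron-sulfur cluster status to the iron regulator Aft1, fell in both stages. Early it stood at 49.0, 46.3 and 44.9 TPM in controls and 32.8, 33.9 and 27.0 TPM with NaHS, or -0.57 on the log2 scale (SE 0.125, limma adjusted p = 0.0144). Relative to the median gene this was -0.33, and it was not called with median-ratio scaling (-0.32, limma adjusted p = 0.0702), with upper-quartile scaling (-0.22, 0.140) or when control 1 or 2 was left out (-0.54 and -0.58, 0.0646 and 0.0588). Late it stood at 67.0, 88.4 and 72.0 FPKM in controls and 34.3, 44.6 and 40.5 FPKM with NaHS, or -0.91 on the log2 scale (SE 0.184, limma adjusted p = 0.0209). No control overlapped a NaHS library, but the late call was lost without control 3, NaHS 1 or NaHS 3 (limma adjusted p of 0.0695, 0.0745 and 0.0715).

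GRX3 (chrIV:644178-644930), its paralog, was not called in either stage. Early controls were at 72.3, 68.4 and 71.3 TPM and NaHS libraries at 76.0, 82.5 and 105 TPM. The NaHS values lay above the controls, with a log2 change of 0.29 (limma adjusted p = 0.145) that was called higher with median-ratio scaling (0.55, limma adjusted p = 0.0339) and upper-quartile scaling (0.65, limma adjusted p = 0.0379). Relative to the median gene it was 0.54, and without NaHS 3 the change as deposited was 0.16 and was not called. Late values overlapped at 107, 86.6 and 81.6 FPKM in controls and 79.6, 97.0 and 104 FPKM with NaHS (log2 change of 0.031, limma adjusted p = 0.926).

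GRX5 (chrXVI:444579-445031), which hands on iron-sulfur clusters inside mitochondria, was among the members with the smallest early changes. It stood at 484, 465 and 489 TPM in early controls and 429, 435 and 427 TPM with NaHS. These groups lay side by side without overlap. The log2 change of -0.16 did not pass (limma adjusted p = 0.193). Relative to the median gene it was 0.085, and with median-ratio and upper-quartile scaling it turned to 0.099 and 0.20; with no filter on low values it was called lower (limma adjusted p = 0.0381). Late values were 194, 373 and 240.3 FPKM in controls and 199, 193 and 135 FPKM with NaHS, which overlapped (log2 change of -0.58, limma adjusted p = 0.215), and without control 2 the change was -0.32.

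**Figure D2:**
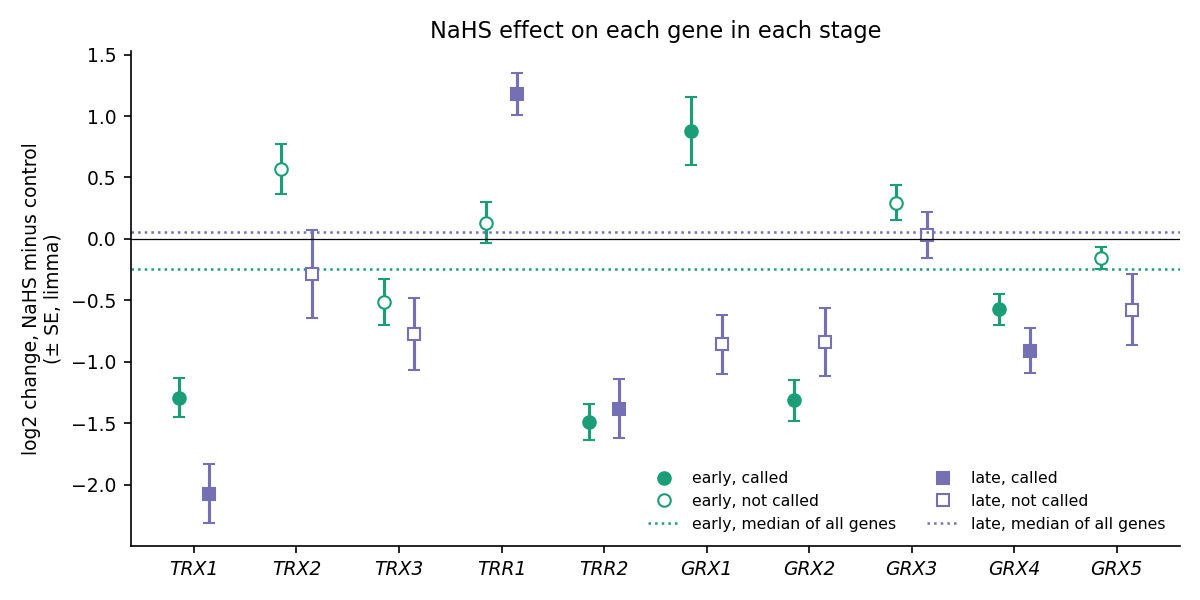
NaHS effect on each gene as a log2 change (vertical axis, with the limma SE as bars), early in circles and late in squares; filled symbols are called genes and dotted lines are the medians of all genes tested, -0.24 early and 0.053 late. GRX1 and TRR1 show the widest gaps between stages that passed a test, at 0.88 against -0.86 and 0.13 against 1.18.

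The NaHS effects on GRX1 and TRR1 differed between the early and the late table. Stage and table cannot be told apart here, since each stage has its own unit and was normalized on its own. Late minus early, the NaHS effect on GRX1 was -1.73 on the log2 scale (SE 0.387, limma adjusted p = 0.00969) and on TRR1 1.05 (SE 0.236, limma adjusted p = 0.0103). Of the 5165 genes tested for this difference, 15.2% were called higher late and 7.55% lower, and the median gene differed by 0.25. Those 787 and 390 calls became 488 and 572 with median-ratio scaling and 510 and 514 with upper-quartile scaling. Relative to that median the differences were -1.99 for GRX1 and 0.79 for TRR1. GRX1 was called under every alternative, with values between -2.01 and -1.40. TRR1 lost its call with upper-quartile scaling (0.80, limma adjusted p = 0.0597).

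The other 8 members did not pass for the difference between stages. TRX1 came next at -0.78 (limma adjusted p = 0.0809). It was called with median-ratio scaling (-1.06, limma adjusted p = 0.0311), upper-quartile scaling (-1.03, 0.0334) and without late control 3 (-1.03, 0.0166). The TRX2 difference was -0.85 (limma adjusted p = 0.188), called only without late control 1 (-1.21, limma adjusted p = 0.0339). For TRR2 it was 0.11 (SE 0.294), less than its error, and turned to -0.17 and -0.14 with the scalings; this does not show that the early and late falls were alike.

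The ratio of paralogs within a library does not depend on how that library was scaled, and for 4 pairs in both stages the control and NaHS ratios did not overlap in 7 of 8 comparisons. For ratios of other gene pairs this share was not computed; for single genes it was 58.2% early and 38.6% late. TRX2 stood at 5.45, 5.34 and 4.07 times TRX1 in early controls and at 15.6, 16.0 and 23.0 times with NaHS. In late controls the same ratio was 2.02, 4.41 and 5.23, and with NaHS it was 12.1, 15.3 and 10.8. TRX2 was thus higher against TRX1 in all 6 NaHS libraries than in any control of its stage, by 3.65-fold early (log2 difference of 1.87, SE 0.226) and 3.49-fold late (1.80, SE 0.447). In each stage of 3 against 3, the exact permutation test gave p = 0.1, the smallest it can give, and 0.114 adjusted over the 8 ratios.

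The mitochondrial reductase stood lower against the cytosolic one in every NaHS library. TRR2 stood at 0.906, 0.870 and 0.827 of TRR1 in early controls, and at 0.326, 0.373 and 0.179 with NaHS. In late controls the ratio was 0.150, 0.212 and 0.166, and with NaHS 0.0312, 0.0310 and 0.0243. The groups were apart in both stages, and the ratio was 3.11-fold lower with NaHS early (log2 difference of -1.64, SE 0.328) and 6.08-fold lower late (-2.60, SE 0.191), each with an exact permutation p = 0.1 and 0.114 adjusted over the 8 ratios.

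Among the glutaredoxins, GRX2 stood lower against GRX1 with NaHS early, and GRX4 against GRX3 in both stages. GRX2 stood at 1.23, 1.22 and 1.30 times GRX1 in early controls and at 0.389, 0.389 and 0.135 with NaHS, 4.57-fold lower (log2 difference of -2.19, SE 0.510, exact permutation p = 0.1). Late it stood at 0.401, 0.452 and 0.458 in controls and 0.513, 0.415 and 0.401 with NaHS, which overlapped, with a log2 difference of 0.013 (SE 0.127, exact permutation p = 1). GRX4 stood at 0.678, 0.676 and 0.630 of GRX3 in early controls against 0.432, 0.411 and 0.258 with NaHS. Late it stood at 0.629, 1.02 and 0.883 against 0.431, 0.459 and 0.390. The GRX4 share was lower in every NaHS library, by 1.85-fold early (log2 difference of -0.89, SE 0.239) and 1.94-fold late (-0.96, SE 0.218), each with an exact permutation p = 0.1 and 0.114 adjusted.

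**Figure D3:**
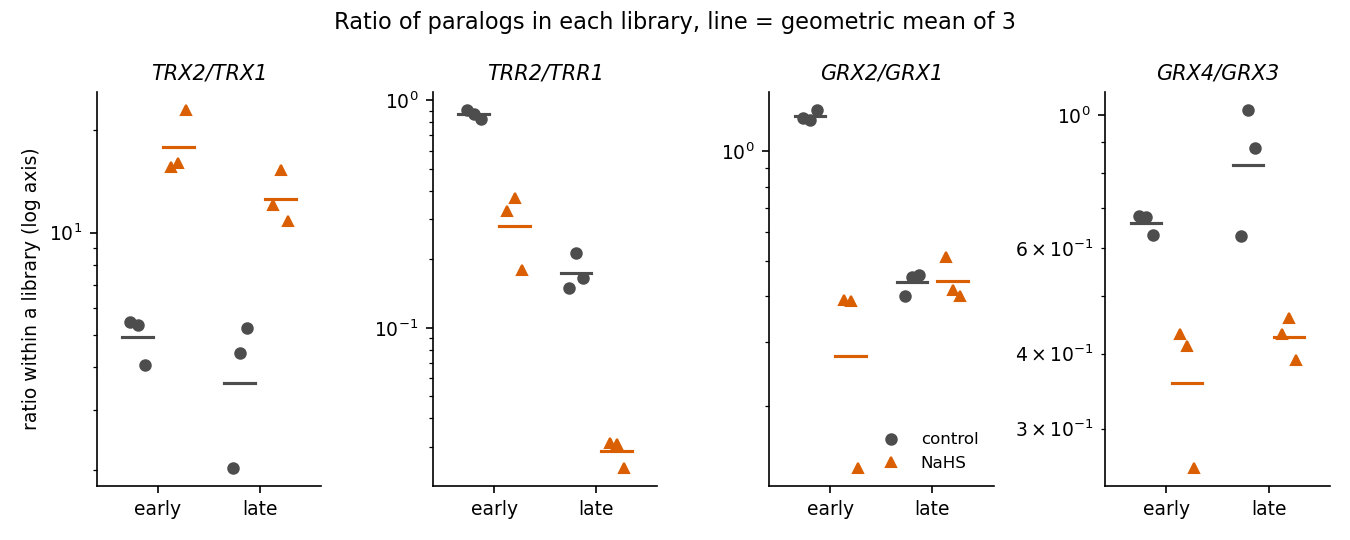
Ratio of each paralog pair within each library (log axes, scaled separately by pair), early on the left and late on the right of each panel; circles are controls, triangles are NaHS libraries and lines are geometric means of 3. Control and NaHS libraries do not overlap except for GRX2/GRX1 in late cultures, at 0.401 to 0.458 and 0.401 to 0.513.

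The order of the members by mean level per gene length was led by TRX2 in all 4 groups. In early controls it ran TRX2, GRX2, GRX1, TRX3, GRX5, TRX1, TRR1, TRR2, GRX3 and GRX4, and 2 neighbouring pairs overlapped, GRX1 with TRX3 and TRX1 with TRR1. With NaHS early, GRX1 stood next to TRX2 and overlapped it, and GRX2 stood below GRX5. In that group 5 of the 9 neighbouring pairs overlapped. In late controls 7 of the 9 neighbouring pairs overlapped, so that order is loose. With NaHS late, TRR1 stood next to TRX2 and overlapped it, TRX1 stood below GRX3, and TRR2 was last. As ranks within each library, over 6007 protein-coding genes in both tables, TRX2 lay between percentiles 93.7 and 99.0 in all libraries. TRR1 lay at a median percentile of 89.6 in late controls and 94.8 with NaHS, and TRX1 at 89.3 and 72.9.

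Promoters were searched for the letters bound by regulators linked to these genes, and the stretches that hold the Yap1 letters are shown. Yap1, an activator of peroxide-response genes, binds TTACTAA, whose reverse complement is TTAGTAA, and a palindromic form TTACGTAA. In the 300 bases before the start codon, on either strand, TTACTAA was found in 7.82% of 6001 yeast promoters and in 3 of the 10 members: TRX2 in 2 places, GRX2 and GRX4. These stretches are given 5′ to 3′ on the coding strand of R64, with the match in capitals.
TRX2, bases 217 to 211 before the start (chrVII:913418-913464, minus strand): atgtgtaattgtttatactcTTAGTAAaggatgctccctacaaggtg
TRX2, bases 181 to 175 before the start (chrVII:913382-913428, minus strand): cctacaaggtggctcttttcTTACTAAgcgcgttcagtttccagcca
GRX2, bases 144 to 138 before the start (chrIV:1470853-1470899, plus strand): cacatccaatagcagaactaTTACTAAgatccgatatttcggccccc
GRX4, bases 260 to 254 before the start (chrV:539402-539448, minus strand): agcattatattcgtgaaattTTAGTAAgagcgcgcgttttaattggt

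Of the members with these letters, GRX2 fell early and GRX4 fell in both stages, and TRX2 changed by 0.57 early and -0.28 late without a call; differences between these members were not tested. TTACGTAA, found in 0.75% of promoters, and the Aft1 letters TGCACCC or GGGTGCA, found in 1.33%, were in no member's window. The stress element AGGGG or CCCCT, bound by Msn2 and Msn4, was in 22.2% of promoters and in 4 members: GRX1, GRX2 with 2 matches, TRR2 and TRX3. A match is not a binding site, and the GRX2 window lies within the opposite-strand gene EMI1.

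The partner genes were taken from 6 lists of 59 genes. Their counts of calls stand beside shares over all genes tested of 28.5% lower and 10.1% higher early, and 9.99% lower and 5.28% higher late. Of 15 enzymes that draw electrons from thioredoxin or share its targets, 8 fell, 1 rose and 6 were not called early, with a median log2 change of -0.53 against -0.24 for all genes. The ribonucleotide reductase genes RNR2 and RNR4, which make DNA precursors, fell by 1.14 and 1.02 on the log2 scale (limma adjusted p = 0.00423 and 0.00277), and the RNR4 change was -0.67 with upper-quartile scaling. Late, 5 of 13 tested fell, 1 rose and 7 were not called (median -0.61 against 0.053). HYR1, the peroxidase that signals to Yap1, fell from 503 ± 91.2 to 123 ± 22.3 FPKM (SD, n = 3 each; limma adjusted p = 0.00187). MXR2, which repairs oxidized methionine in mitochondria, changed by -1.79 and GPX2, a further peroxidase, by 1.92 (limma adjusted p = 0.0160 and 0.0136). GPX2 lost its call without control 3, and MXR2 without control 3, NaHS 1 or NaHS 3 and with no filter on low values (limma adjusted p of up to 0.0606). The other 3 late falls, named after their values were seen, were MXR1, MET16 and PRX1.

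Among the other glutaredoxins and the enzymes that supply glutathione, GRX6 of the early secretory pathway rose early by 0.78 on the log2 scale (limma adjusted p = 0.0215), a call lost without any 1 control (up to 0.0728). GSH1, the first enzyme of glutathione synthesis, fell early from 32.5 ± 5.12 to 14.7 ± 3.46 TPM (SD, n = 3 each; limma adjusted p = 0.00838). GRX8, a dithiol glutaredoxin, fell late from 82.1 ± 8.23 to 20.8 ± 1.21 FPKM (SD, n = 3 each; limma adjusted p = 0.000635). In all, 1 of these 6 genes rose and 2 fell early, the falls at a share near the 28.5% of all genes, and 2 fell late. Glutathione reductase, GLR1, was not called (log2 changes of -0.039 early and 0.44 late; limma adjusted p = 0.852 and 0.139). GLR1 was named after its values were seen, as was GSH2, the fall besides those of GSH1 and GRX8, early and late.

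Of the 3 peroxide-response regulators, 1 rose and 1 fell early. YAP1 rose early by 0.38 (limma adjusted p = 0.0377), a call not kept when any control, NaHS 1 or NaHS 2 was left out (limma adjusted p of up to 0.133) or with the replicate block (0.0996); with median-ratio and upper-quartile scaling it changed by 0.63 and 0.73. YBP1, a Yap1 partner named after its values were seen, fell early (-0.54, limma adjusted p = 0.0157). Late, these regulators were not called, and SKN7 was listed at 0 in all 3 controls. Of 7 iron-sensing genes that work with GRX3 and GRX4, 5 were not called early and 5 of the 6 tested were not called late. AFT2, an iron regulator, rose early by 0.71 and CCC1, the vacuolar iron importer, fell by 0.83 (limma adjusted p = 0.00536 and 0.00142), and the CCC1 change was -0.47 with upper-quartile scaling. Late, FRA1, a partner of GRX3 and GRX4 in restraining Aft1, rose from 60.9 ± 7.98 to 134 ± 12.7 FPKM (SD, n = 3 each; limma adjusted p = 0.00714). AFT1 was listed at 0 in all 6 late libraries, and at 2.97 to 14.1 TPM early. Late libraries each listed 1612 to 1691 entries with a gene identifier at 0, and early libraries 697 to 723. A late 0 therefore does not show by itself that AFT1 or SKN7 was absent.

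Of 16 genes of mitochondrial iron-sulfur assembly, where GRX5 acts, 3 rose and 2 fell early, and 1 rose and 3 fell of the 14 tested late, against 10.1% and 28.5% of all genes early and 5.28% and 9.99% late. MGE1, a co-chaperone, and YAH1, a ferredoxin, rose early by 1.06 and 0.74 (limma adjusted p = 0.00437 and 0.00208). The scaffold gene ISU1 also rose early (0.39) and BOL1 fell late (-0.88; limma adjusted p = 0.0183 and 0.0224), both named after their values were seen. ISA1, which works beside GRX5 in building clusters of the larger kind, fell late from 363 ± 51.1 to 162 ± 18.3 FPKM (SD, n = 3 each; limma adjusted p = 0.00846). Early ISA1 changed by -0.42 (limma adjusted p = 0.0339), a call lost with median-ratio scaling (-0.16), upper-quartile scaling (-0.058), the replicate block, and without any control, NaHS 1 or NaHS 2 (limma adjusted p of up to 0.807 in all). BOL3, a cluster transfer factor, was called lower early (-1.41) and late (-0.99), and lost the early call without any 1 control and with no filter, and the late one without control 3 or any 1 NaHS library, with no filter and with the block (limma adjusted p of up to 0.111). MGE1 was listed at 0 in 2 late controls, so no late fold is given.

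NADPH, the electron source of both systems, is supplied by 12 listed genes, of which 7 fell and 1 rose early, and 4 fell and 1 rose late. Over all genes tested, 28.5% were called lower and 10.1% higher early, and 9.99% lower and 5.28% higher late. The list's median log2 change was -0.63 early and -0.36 late, against -0.24 and 0.053 over all genes. GND2, the minor phosphogluconate dehydrogenase, fell in both stages, from 57.7 ± 2.03 to 13.2 ± 2.89 TPM and from 22.9 ± 3.03 to 4.69 ± 0.757 FPKM (SD, n = 3 each; limma adjusted p = 0.000529 and 0.00115). ALD6, the cytosolic aldehyde dehydrogenase, fell early from 1376 ± 63.8 to 120.1 ± 73.1 TPM, and in the late table, where it was called higher, 1 library listed it at 0. IDP1, the mitochondrial isocitrate dehydrogenase that makes NADPH, fell late by 1.42 on the log2 scale (limma adjusted p = 0.0116). UTR1, a NAD kinase, rose early by 0.64 (limma adjusted p = 0.0185), a call lost without any 1 control (up to 0.0700), and its change was 0.99 with upper-quartile scaling.

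**Figure D4:**
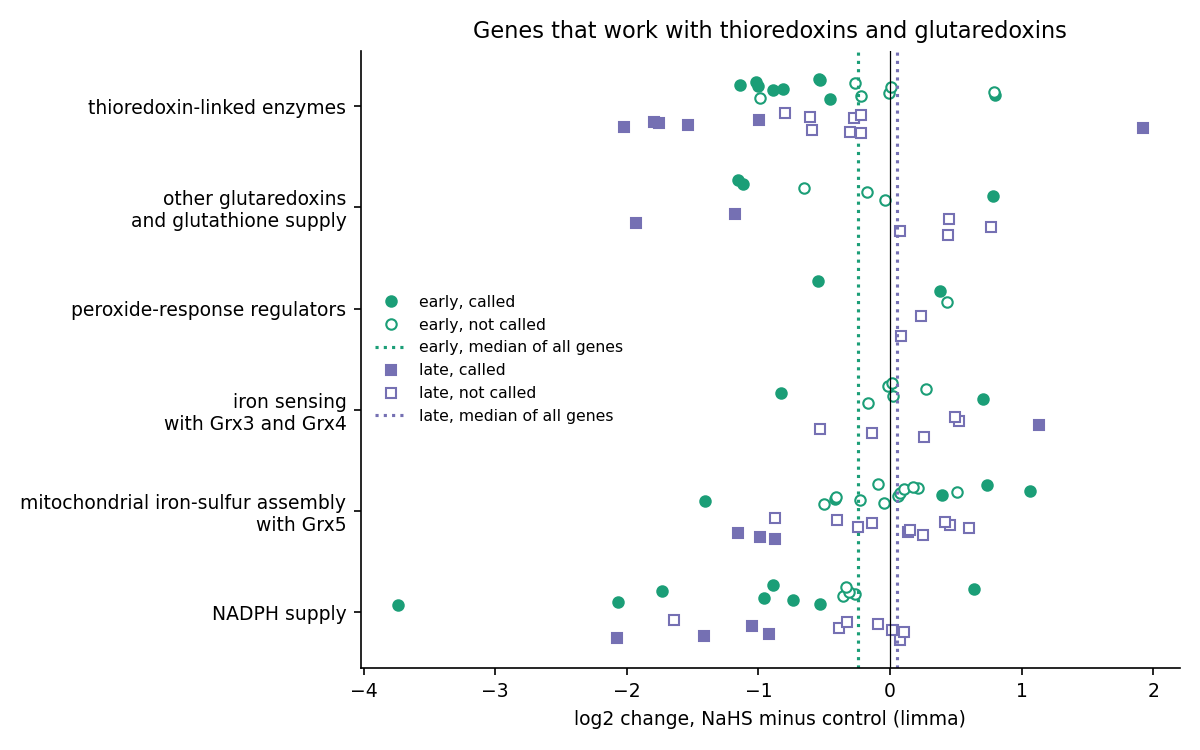
Log2 change with NaHS (horizontal axis, limma) of each partner gene without a 0, grouped by list, early in circles and late in squares; filled symbols are called genes and dotted lines the medians of all genes tested. Genes of thioredoxin-linked enzymes and NADPH supply lie mostly to the left. Over all tested genes of these lists, the medians were -0.53 and -0.63 early and -0.61 and -0.36 late. The late NADPH median includes ALD6, which was called higher but has a 0 and is not drawn.

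The genes whose pattern came closest to each member were taken by Pearson's r over the 12 libraries, each value centred on its stage mean, among 3181 other genes. These r describe likeness only: treatment and library effects are shared by many genes, and all values come from the same libraries. TRX1 was closest to TRP4 (0.984) and DUG1 (0.978), and TRX2 to APA2 (0.953) and YNK1 (0.953). TRX3 was closest to COX20 (0.966) and MRX3 (0.964). TRR1 was closest to SEH1 (0.969) and ZPS1 (0.953), and TRR2 to RVS167 (0.989) and SHH4 (0.988). GRX1 was closest to SLM4 (0.980) and YGL165C (0.973), and GRX2 to CCC1 and PKP1 (both 0.976). GRX3 was closest to RPF1 (0.959) and ARG8 (0.916), GRX4 to BNA6 (0.988) and DAD4 (0.979), and GRX5 to DSK2 (0.974) and AHC2 (0.961).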

How the data were processed

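Per the labels, TruSeq libraries of TRIzol-extracted RNA were read in pairs on an Illumina NovaSeq; SeqPrep and Sickle trimmed the reads and TopHat aligned them. The submitters' processing notes name Bowtie 0.12.2 and build R64. Which program quantified the genes, and whether it used strand, is not given in the sources used here. The authors deposited early values that are TPM, read from column totals of 998109 to 998610, and late values that are FPKM per the file headers, with totals of 1510276 to 2145467. No counts were analysed, so no counting interval is given.

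Values were taken as log2(value + 1). Entries naming no gene (319 early, 429 late, up to 1.27% and 5.30% of a library's total) were left out, and genes with a mean of at least 1 were tested. Each stage was fitted with limma 3.58.1 in R 4.3.3 with a variance trend; the difference between stages was an interaction over all 12 libraries, for genes passing that minimum in each table. Paralog ratios used an exact permutation test. Sequences and positions were read from the RefSeq R64 genome and annotation with Biopython 1.88. The members and lists were chosen with earlier results of these data known. Named were all members, up to 2 risen and 2 fallen genes of each list and stage (largest change, mean of at least 10, no 0), and the 2 genes most like each member. The fits were tested on simulated data. Alternatives were pseudocounts of 0.1 and 5, other filters and scalings, a replicate block, a minimum log2 change of 1 and each library left out.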

Additional observations from a re-analysis of the deposited data

Results flagged for a closer look

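A pair of members had an NaHS effect that differed between early and late cultures by a test of the difference itself, limma's interaction term over 12 libraries. Of the 10 members, 1 was called higher late and 1 lower. Such calls were common, with 15.2% of the 5165 genes tested called higher late and 7.55% lower. For GRX1 the late effect minus the early effect was -1.73 on the log2 scale (limma adjusted p = 0.00969): all 3 early NaHS libraries were above the early controls and all 3 late NaHS libraries were below the late controls. For TRR1 it was 1.05 (limma adjusted p = 0.0103), with late NaHS libraries above all late controls and early values that overlapped. Early NaHS 3 had the highest early level of both genes; without it the differences were -1.40 (limma adjusted p = 0.00679) and 1.22 (limma adjusted p = 0.00143). With upper-quartile scaling TRR1 lost its call (0.80, limma adjusted p = 0.0597). The early and late effects come from tables normalized separately, and stage and table cannot be told apart.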

How the results depend on the processing

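The number of members called was 5 early, 4 late and 2 for the difference between stages. With a minimum log2 change of 1 it was 3 early, 3 late and 2. The share of all genes at that minimum was not computed, so these counts have nothing to be set against. Leaving out 1 library gave 3 to 7 early, 2 to 7 late and 2 to 3 for the difference. Early extremes were 3 without control 1 or 2 and 7 without NaHS 3. All genes called early then moved from 2359 to 1423, 1389 and 3253, in that order. Late extremes were 2 without NaHS 1 or 3 and 7 without control 1. All genes called late then moved from 816 to 448, 446 and 871, in that order. Early calls split into 1 higher and 4 lower as deposited and into 3 and 3 with median-ratio or upper-quartile scaling, where all genes split into 1067 and 1122 or 1207 and 939 against 616 and 1743. Over all genes, leaving out 1 library lowered the early higher calls to as few as 296 (without control 2) and the late calls from 282 higher and 534 lower to 123 and 290 (without control 3). Same-numbered control and NaHS libraries did not deviate together (correlations of -0.113 to 0.086), so the numbers were not taken as pairs. With the replicate block, 4, 4 and 2 members were called. All genes called then moved from 2359 to 1860 early, from 816 to 487 late and from 1177 to 839 for the difference. Of 450 recomputed member changes, 419 stayed on their side of the threshold, 15 lost a call and 16 gained one. Called changes kept their direction. Some changes that were not called reversed, as early TRR1 did without NaHS 3 (-0.044). Paralog ratios moved by less than the spread between replicates in all 64 recomputations, but this count does not show that they are stable. Leaving out 1 of 3 libraries cannot move a group mean by that spread. The replicate block leaves the ratios as they are. Of 320 recomputed likeness values, an alternative chosen after seeing the data, 318 stayed within their 95% interval. RPF1 with GRX3 rose to 0.992 and 0.994 with the 2 scalings. The recomputed values reuse the same libraries, so this count cannot show that the likeness would hold in others. List counts, most of them below 5, moved by over 1.5 times in 88 of 336 recomputations. Depth is unknown, so a limit of detection cannot be given.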

Other observations

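Likeness between members was measured by Pearson's r over the 12 libraries with each value centred on its stage mean, and is given as a description. TRR2 tracked GRX2 (0.954), GRX4 (0.952) and TRX1 (0.918), and TRX1 tracked GRX4 (0.921). TRX3 tracked GRX2 (0.891), GRX4 (0.889), TRR2 (0.872) and GRX5 (0.871). TRX2 and GRX1 tracked each other (0.839). Both were highest in NaHS 3 among the early libraries and in control 2 among the late libraries. TRR1 ran against GRX4 (-0.797) and TRX1 (-0.789).

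Summed by family, the cytosolic thioredoxin transcripts TRX1 and TRX2 took 0.150%, 0.134% and 0.153% of the early control totals and 0.165%, 0.159% and 0.256% of the early NaHS totals. In late cultures they took 0.0610%, 0.0921% and 0.0761% in controls and 0.0585%, 0.0641% and 0.0430% with NaHS, which overlapped. TRR1 and TRR2 together took 0.0419%, 0.0432% and 0.0408% in early controls and 0.0298%, 0.0290% and 0.0371% with NaHS, and in late cultures 0.0259%, 0.0216% and 0.0222% against 0.0465%, 0.0541% and 0.0456%. As deposited, the reductase sum thus lay below the controls early and above them late in all NaHS libraries. The early part depends on scaling. Median-ratio factors were 1.08 to 1.11 in early controls and 0.889 in early NaHS 3. Divided by these factors, the early NaHS 3 sum no longer lies below the controls. For single genes, the groups did not overlap in 58.2% of those tested early and 38.6% late. GRX1 and GRX2 together took 0.162%, 0.154% and 0.151% in early controls against 0.140%, 0.140% and 0.227% with NaHS, which overlapped in range, and 0.0419%, 0.0483% and 0.0530% in late controls against 0.0301%, 0.0333% and 0.0213%, which did not. GRX3 and GRX4 together took 0.0121%, 0.0115% and 0.0116% in early controls against 0.0109%, 0.0117% and 0.0132%, and 0.0115%, 0.00816% and 0.00936% in late controls against 0.00741%, 0.00849% and 0.00823%, which overlapped in both stages. These sums were looked at after the single genes had been seen and were not tested.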
